A study of Drosophila melanogaster with 24 samples.

Results

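Old age changed some microRNAs of Drosophila melanogaster differently in the circulating fluid than in the tissues, and that difference of age changes is described here. It is the log2 fold change of old against young hemolymph minus the log2 fold change of old against young body tissue, so that a positive value means a microRNA gained more, or lost less, with age in hemolymph than in body. All 24 of the 24 small RNA libraries entered it, in 4 groups. Old hemolymph (n = 8) and old body tissue (n = 8) came from flies of 25 days, and young hemolymph (n = 4) and young body tissue (n = 4) from flies of 2 days. The labels give all flies as male and name no mutation, strain difference or treatment. Hemolymph RNA was taken with a serum and plasma kit and body RNA with a standard tissue kit, so that kit and compartment cannot be told apart. No label says how many flies a library holds or whether libraries came from separate collections, and p-values therefore measure the spread between these libraries. Old libraries 1 to 4 carry the code letter O and old libraries 5 to 8 the letter R, with no meaning given.

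MicroRNAs are short RNAs cut from the 2 arms (5p and 3p) of a hairpin, and in Argonaute proteins they lower the translation and stability of messenger RNAs that pair with their seed, the bases near the 5' end. Hemolymph is the open circulation of the insect. It bathes the fat body, gut, muscles and nervous system, carries blood cells (hemocytes), and can hold microRNAs bound to proteins or in vesicles as well as those inside the hemocytes. Values are CPM, the counts of a microRNA scaled to the total microRNA counts of its library, and a relative level cannot tell more RNA per cell from more cells that release it.

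Of 466 mature microRNA names, 329 had at least 1 count and 124 passed the count filter and were tested. Total counts were 52792 to 120876 in old hemolymph, 56010 to 275974 in young hemolymph, 136692 to 230282 in old body and 180182 to 242935 in young body, so values of most hemolymph libraries carry the larger counting error. Muscle markers (miR-1-3p and miR-133-3p) summed to at most 0.0171% of counts in old hemolymph and 0.0393% in young hemolymph, against 0.153 to 0.202% in old body and 0.225 to 0.447% in young body. Nervous system markers (miR-124-3p, miR-210-3p and miR-1000-5p) likewise summed to at most 0.0171% in old hemolymph and 0.00536% in young hemolymph, against 0.277 to 0.391% in old body and 0.220 to 0.365% in young body. The longer lists used here did not show this gap. The head and nervous system list of 12 microRNAs summed on average to 5.9952% in old hemolymph and 17.066% in young hemolymph. In old and young body its sums were 4.2544 and 7.2355%. The muscle list stood at 0.49671 and 2.0595% in old and young hemolymph, against 0.57162 and 0.92356% in old and young body. MicroRNAs known from the ovary were present although all libraries are labelled male, and by miR-318-3p some libraries stood apart. miR-318-3p was at 17910 CPM in old hemolymph library 4, against 147 to 2178 CPM in the other old hemolymph libraries. In young hemolymph it was at 11.8, 36.2, 982 and 1906 CPM, and in young body at 64.0, 6660, 68140 and 54850 CPM, so that young libraries 1 and 2 were below young libraries 3 and 4 in both compartments.

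The age change differed between hemolymph and body for 18 of the 124 microRNAs (14.5%; edgeR quasi-likelihood test, Benjamini-Hochberg adjusted p below 0.05), and for 37 at an unadjusted p below 0.05. For 8 of them (6.45% of those tested) the difference was positive, which is called higher here, and for 10 (8.06%) it was negative, called lower. Of the 8, miR-4919-3p passed the count filter through old hemolymph alone, the group where it was high, which leaves 7 without it. The 8 higher microRNAs all rose with age in hemolymph in the same fit. In body, miR-275-3p fell, miR-281-1-5p, miR-281-3p and miR-4919-3p also rose but by less, and miR-10-5p, miR-317-3p, miR-957-3p and miR-989-3p passed the test in neither direction. Among the 10 lower ones, miR-996-3p fell in hemolymph and rose in body. miR-14-3p, miR-279-3p, miR-2b-3p, miR-2c-3p, miR-9b-5p and miR-9c-5p fell in hemolymph with no call in body. miR-10-3p, miR-284-5p and miR-316-5p rose in body with no call in hemolymph. For comparison, 19 of the 124 rose with age in hemolymph (15.3%) and 28 fell (22.6%), while 20 rose in body (16.1%) and 25 fell (20.2%). Of the microRNAs with no call in the difference, 6 rose in both compartments, 16 fell in both and 59 were called in neither.

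**Figure D1:**
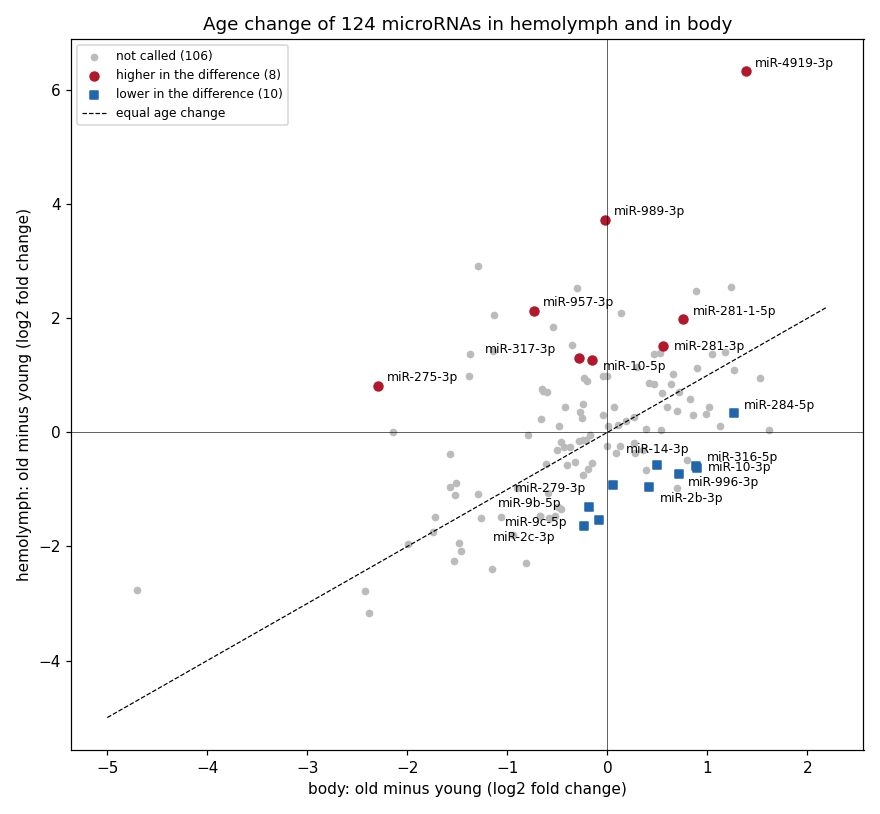
Each point is 1 of the 124 tested microRNAs, with its age change in hemolymph (old minus young, log2 fold change) on the vertical axis against its age change in body on the horizontal axis, and the dashed line marks equal changes. The 8 microRNAs called higher in the difference (red circles) lie above the line and the 10 called lower (blue squares) below it, with miR-275-3p alone among the called at the left edge. The height of miR-4919-3p depends on a prior count, since its young hemolymph counts were all 0.

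How firmly a call stands depended on which libraries were used and on the scaling between them. Of the 8 higher and 10 lower calls, 3 and 1 held with R-coded old libraries only, and 7 and 2 with O-coded ones only. With young libraries 3 and 4 only, 6 and 4 held, and with young libraries 1 and 2 only, 4 and 7. The median difference over all 124 microRNAs was 0.09 on the log2 scale with TMM factors (trimmed mean of M values, which align the bulk of the microRNAs with 1 library taken as the standard), and 0.40 when young body library 1 was made that standard in place of old hemolymph library 4, an alternative chosen after seeing the data. With that shift 18 microRNAs were called higher and 6 lower, and 8 of the 8 higher calls but 4 of the 10 lower calls remained. The standard changed in the same way on leaving out old hemolymph library 4, young hemolymph library 4, any old body library but number 5, or either of young body libraries 3 and 4. In those fits the median difference was 0.34 to 0.43. All 18 kept their sign in every alternative and every fit without 1 library in which they were tested. Both miR-275-3p and miR-957-3p were also called in all 16 alternatives and in all 24 fits without 1 library, which held for no other of the 18. Next came miR-996-3p, called in 15 of 16 alternatives and in 24 of 24 fits without 1 library.

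**Figure D2:**
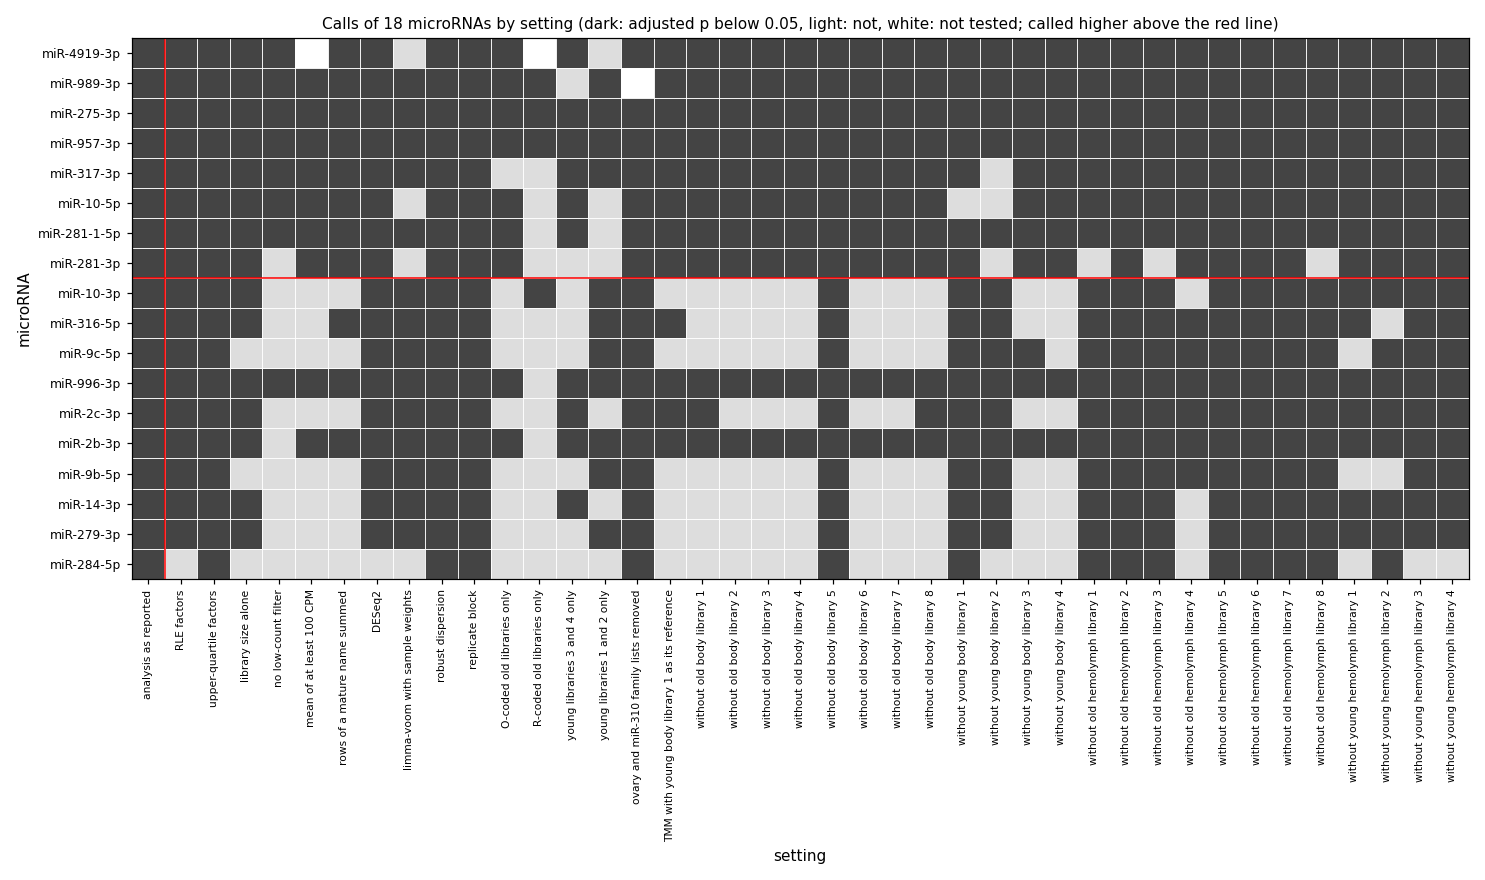
Each row is 1 of the 18 called microRNAs, with the 8 called higher above the red horizontal line, and each column is the fit reported, an alternative or a fit without 1 library. Dark cells mark an adjusted p below 0.05, light cells a value that missed it and white cells a microRNA not tested there. The rows of miR-275-3p and miR-957-3p are dark throughout, and most light cells stand among the 10 lower calls.

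The largest opposed change was that of miR-275-3p. Its hairpin lies in an exon of the noncoding RNA lncRNA:CR43857 on 2L (7425795 to 7425892 in dm6, forward strand), beside mir-305. In the mosquito Aedes aegypti miR-275 is needed for blood digestion and egg development. Its level was 19006 to 24659 CPM in old hemolymph with a median of 22763, against 7343, 11258, 12891 and 12060 CPM in the young hemolymph libraries. In body it was 1522 to 2630 CPM at 25 days (median 1941), against 12157, 9169, 6148 and 7241 CPM at 2 days. Old and young libraries overlapped in neither compartment, and the order of the ages was opposite. The age change was 0.81 ± 0.24 in hemolymph (log2, SE; edgeR adjusted p = 0.00795) and -2.29 ± 0.22 in body (adjusted p = 3.3e-08), which makes a difference of 3.10 ± 0.34 (adjusted p = 2.9e-07). Hemolymph minus body was 3.44 on the log2 scale in old flies and 0.33 in young flies.

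The other products of the mir-275 and mir-305 hairpins did not pass the test of the difference. Values were 0.51 ± 0.36 for miR-275-5p (edgeR adjusted p = 0.365), 0.35 ± 0.27 for miR-305-5p (adjusted p = 0.419), which in the fly tunes intestinal stem cell self-renewal to nutrition, and 0.37 ± 0.18 for miR-305-3p (adjusted p = 0.169). miR-305-3p itself was at 11585 to 14679 CPM in old hemolymph, against 6006, 5685, 7731 and 4997 CPM in young hemolymph, with no overlap. In body it ran from 9644 to 11307 CPM in old flies, against 5550, 6172, 9964 and 9521 CPM in young flies, so that the body groups overlapped. The relation of the 2 arms of mir-275 does not depend on scaling between libraries. In body the 5p arm made up 7.89% ± 1.10 of both arms in old flies (SD, n = 8) and 2.38% ± 1.18 in young flies (n = 4), with no overlap. In hemolymph the share was 3.69% ± 0.894 at 25 days and 5.51% ± 1.41 at 2 days, with an overlap. Arm shares are given without a test, since these hairpins were chosen for arms already called in the same libraries.

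**Figure D3:**
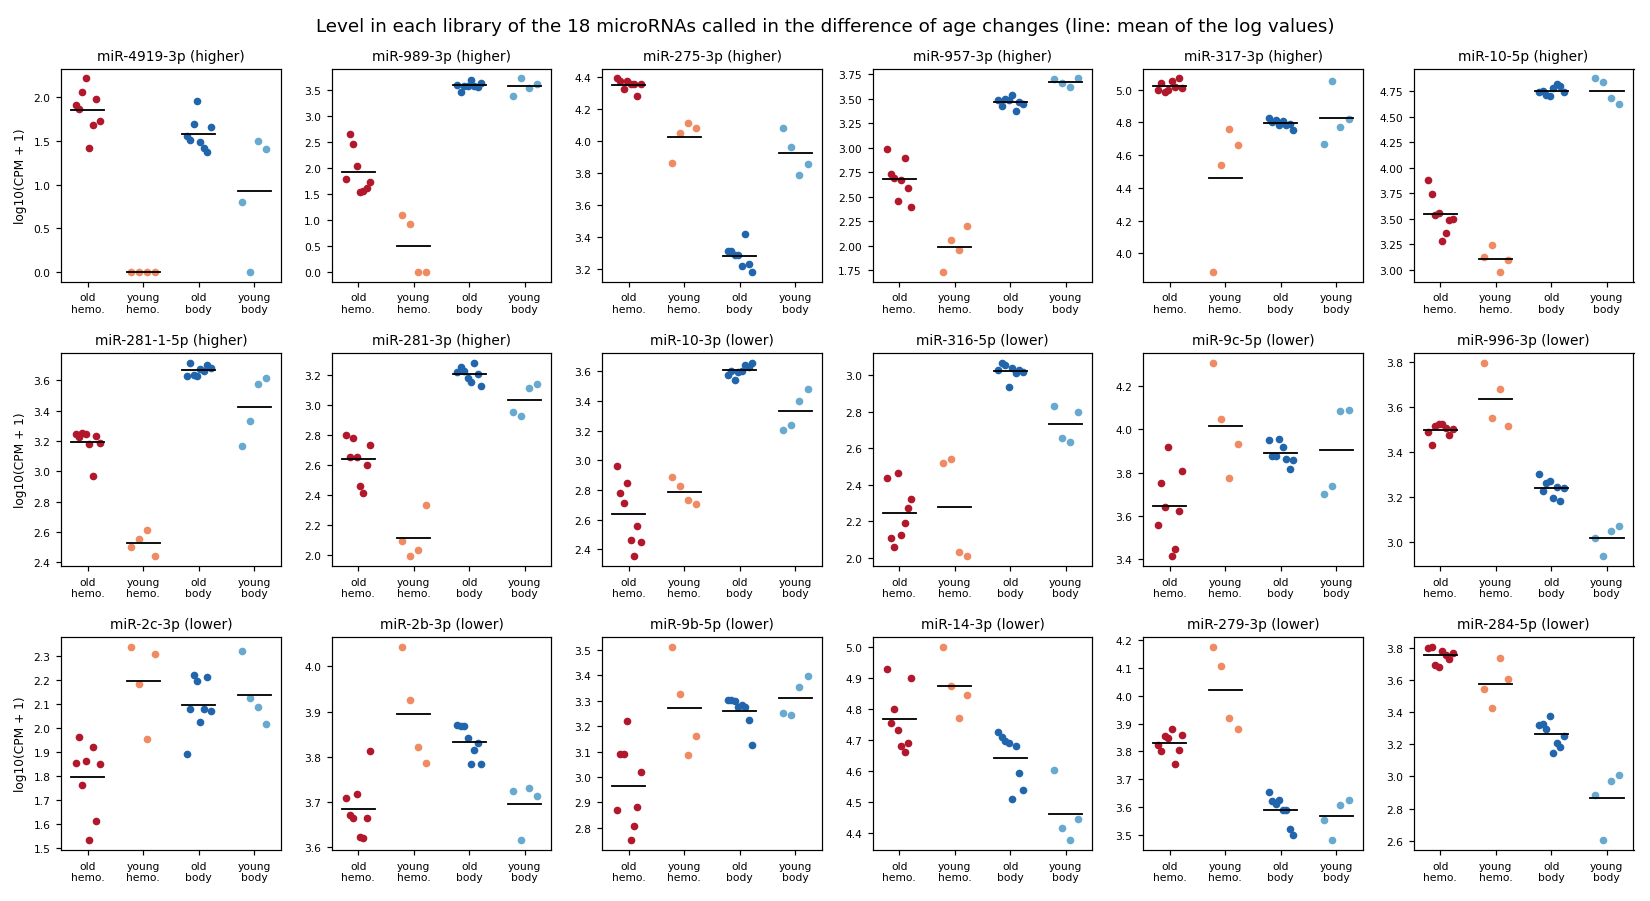
Levels of the 18 called microRNAs are plotted as log10(CPM + 1), with 1 panel a microRNA and 1 point a library, from left to right for old hemolymph, young hemolymph, old body and young body, and with a line at the mean of the log values. The vertical axes do not start at 0 and differ between panels. For miR-275-3p the old hemolymph points lie above the young ones while the old body points lie below the young ones, and for miR-996-3p the means stand in the opposite order in both compartments.

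miR-957-3p rose in hemolymph from a low level. It is encoded on 3L (22518196 to 22518291, reverse strand), with no annotated host gene on that strand. It stands in the list of head and nervous system microRNAs used here. Old hemolymph libraries held 245 to 960 CPM (median 478) and young hemolymph libraries 53.0, 112, 89.3 and 159 CPM, with no overlap. These levels rest on few counts, 16 to 95 in the old hemolymph libraries and 9, 31, 5 and 11 in the young ones. Old body held 2392 to 3447 CPM (median 3020), below all 4 young body libraries at 5065, 4529, 4195 and 5100 CPM. The hemolymph change of 2.13 ± 0.38 (log2, edgeR adjusted p = 6.3e-05) stood beside -0.74 ± 0.30 in body, which missed the threshold (adjusted p = 0.0554), and the difference was 2.87 ± 0.48 (adjusted p = 1.4e-04). Hemolymph minus body was thus -2.58 on the log2 scale in old flies and -5.45 in young flies. Of the 12 microRNAs on that list all 12 were tested, miR-957-3p was the only one called in the difference, 6 were positive and the median was -0.00, where all 124 tested had 68 positive and a median of 0.09. In hemolymph 1 of the 12 rose with age and 2 fell, beside 19 and 28 of all 124, and in body 2 rose and 6 fell, beside 20 and 25 of all 124.

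miR-317-3p, a microRNA that dampens Toll immune signalling in the fly, is encoded on 3R (10091126 to 10091217, forward strand) upstream of mir-277 and mir-34. Old hemolymph held 96965 to 117218 CPM with a median of 103473, and the young hemolymph libraries held 7679, 34521, 57311 and 45596 CPM. In body the values were 56302 to 67403 CPM in old flies (median 62464) and 46676, 113219, 59180 and 66524 CPM in young flies. The hemolymph groups were separate and the body groups overlapped. Its age change was 1.31 ± 0.34 in hemolymph (log2, edgeR adjusted p = 0.00311) and -0.28 ± 0.32 in body (adjusted p = 0.515), a difference of 1.59 ± 0.46 (adjusted p = 0.0208). The call was lost without young body library 2, where the difference was 1.09 (adjusted p = 0.0874), and with O-coded or R-coded old libraries only (1.72 and 2.03).

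Its neighbours were not called. miR-34-5p, which protects the aging fly brain, was at 9820 to 18810 CPM in old hemolymph, against 153, 1091, 3339 and 2903 CPM in young hemolymph. Old body held 7740 to 9384 CPM of it and the young body libraries 1638, 3580, 4640 and 4952 CPM. Old libraries thus lay above young ones in both compartments, and the difference of the age changes was 1.31 ± 0.57 (edgeR adjusted p = 0.112). For miR-277-3p, which acts on branched-chain amino acid breakdown, the difference was 0.22 ± 0.36 (adjusted p = 0.769). Of the 6 members of the mir-277, mir-34 and mir-317 list 5 were tested, 1 was called, 4 were positive and the median was 0.22, beside 18 called, 68 positive and a median of 0.09 among all 124.

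The 2 arms of mir-10 were called in opposite directions. The hairpin lies on 3R (6809506 to 6809582, reverse strand) in an exon of lncRNA:CR42651, within the Antennapedia complex of Hox genes. miR-10-5p was at 1911 to 7593 CPM in old hemolymph (median 3284), against 1319, 1728, 946 and 1242 CPM in young hemolymph, with no overlap. In body it was at 50839 to 65520 CPM in old flies (median 55883) and at 75154, 68608, 48599 and 41880 CPM in young flies, which enclosed the old values. Its difference was 1.43 ± 0.44 (log2, edgeR adjusted p = 0.0263), made of 1.28 ± 0.33 in hemolymph (adjusted p = 0.00266) and -0.15 ± 0.30 in body (adjusted p = 0.720). It fell short of the threshold without young body library 1 (1.16, edgeR adjusted p = 0.0704) and without young body library 2 (1.25, adjusted p = 0.0732). Its call held in 13 of 16 alternatives, and was lost with limma, with R-coded old libraries only and with young libraries 1 and 2 only.

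Its partner miR-10-3p went the other way. Old hemolymph held 225 to 910 CPM (median 436) and young hemolymph 766, 670, 536 and 505 CPM, which overlapped. Old body held 3491 to 4550 CPM (median 3993), above the 1596, 1715, 2505 and 3026 CPM of young body. The difference was -1.52 ± 0.37 (edgeR adjusted p = 0.00782), with -0.63 ± 0.26 in hemolymph (adjusted p = 0.0617) and 0.90 ± 0.26 in body (adjusted p = 0.00927). Its call held in 10 of 16 alternatives. It was lost with young body library 1 as the TMM standard (-1.10, edgeR adjusted p = 0.0793) and with O-coded old libraries only (-0.53, adjusted p = 0.469). The call was also lost with no low-count filter, at a mean of at least 100 CPM, with rows of a name summed and with young libraries 3 and 4 only. As a share of both arms, 5p took 88.7% ± 2.71 in old hemolymph (83.5 to 91.8%) and 67.6% ± 4.64 in young hemolymph (63.3 to 72.1%), with no overlap. In body the share was 93.4% ± 0.487 in old flies and 96.0% ± 2.19 in young flies, of which library 4 (93.3%) lay inside the old range of 92.5 to 93.8%.

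**Figure D4:**
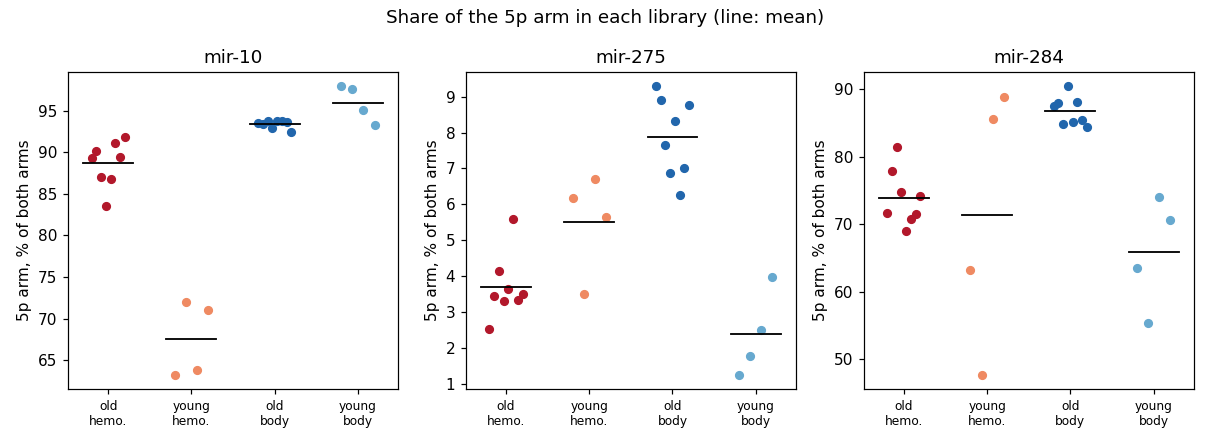
The share of the 5p arm in the counts of both arms (percent) is shown for mir-10, mir-275 and mir-284, with 1 point a library and a line at the group mean. For mir-10 all 8 old hemolymph libraries are above all 4 young ones, and for mir-275 and mir-284 all 8 old body libraries are above all 4 young ones.

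Across the 31 hairpins of which both arms were tested, the arms had the same sign of difference in 18 and opposite signs in 13. The median gap between the arms was 1.11 on the log2 scale, taken without sign. Both arms were called for mir-10 and mir-281-1, and mir-10 was the only hairpin called in opposite directions. Since the 3p name of mir-281 is shared by the hairpins mir-281-1 and mir-281-2, its counts cannot be divided between them.

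In the miR-281 family, known from the insect gut, miR-281-1-5p and miR-281-3p rose in both compartments, and more in hemolymph. mir-281-1 and mir-281-2 sit side by side on 2R (mir-281-1 at 12170373 to 12170462, reverse strand) in an intron of Oda. miR-281-1-5p was at 934 to 1781 CPM in old hemolymph (median 1692), against 318, 355, 411 and 274 CPM in young hemolymph. Old body held 4220 to 5214 CPM (median 4673) and young body 1468, 2153, 3775 and 4133 CPM. Neither compartment overlapped, but young body libraries 3 and 4 came close to the old ones. The change was 1.98 ± 0.20 in hemolymph (log2, edgeR adjusted p = 7.0e-08) and 0.76 ± 0.18 in body (adjusted p = 0.00243), with a difference of 1.22 ± 0.26 (adjusted p = 0.00176). With young libraries 1 and 2 only, the difference was 0.83 (adjusted p = 0.123).

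miR-281-3p gave 0.96 ± 0.31 (edgeR adjusted p = 0.0347), from 1.52 ± 0.25 in hemolymph and 0.56 ± 0.21 in body. Its call held in 20 of 24 fits without 1 library and was lost in the other four, where the differences were 0.98 (without young body library 2), 0.87 (without old hemolymph library 1), and 0.92 both without old hemolymph library 3 and without old hemolymph library 8. The sister product miR-281-2-5p was not called (0.23 ± 0.39, adjusted p = 0.769). It was at 3263 to 8061 CPM in old hemolymph, against 1184, 1413, 2607 and 2383 CPM in young hemolymph. In body it was at 20584 to 28490 CPM in old flies, against 3565, 5195, 19108 and 19450 CPM in young flies. Old lay above young in both compartments, and young body libraries 1 and 2 were far below young body libraries 3 and 4.

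The remaining higher calls had the fewest counts in young hemolymph, or none. miR-989-3p, which acts in border cell migration in the fly ovary, had 2, 2, 0 and 0 counts in the young hemolymph libraries. In CPM it was at 33.1 to 454 in old hemolymph (median 56.6), against 11.8, 7.25, 0 and 0 in young hemolymph. Old body held 2921 to 5018 CPM and young body 2418, 5322, 3542 and 4236 CPM, which overlapped. The difference was 3.75 ± 0.97 (log2, edgeR adjusted p = 0.00782), with 3.73 ± 0.85 in hemolymph (adjusted p = 0.000602) and -0.03 ± 0.43 in body (adjusted p = 0.982). With young libraries 3 and 4 only, where young hemolymph was at 0, its adjusted p was 0.0508.

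The ovarian microRNAs miR-318-3p, miR-994-5p and miR-989-3p summed to 0.0227 to 0.307% of counts in 7 old hemolymph libraries and to 2.02% in old hemolymph library 4. The sums were 0.00236, 0.00507, 0.121 and 0.215% in young hemolymph, 1.98 to 3.58% in old body, and 0.255 to 8.03% in young body, with young body libraries 1 and 2 below libraries 3 and 4. Old hemolymph library 4, the highest of old hemolymph, was also the TMM standard in the fit reported. Young body library 1, the lowest of young body, was that of the alternative and of several fits without 1 library. In some other fits without 1 library it was old hemolymph library 3, with a sum of 0.0739%. Where the ovarian counts came from, and what they add to the difference, was not tested. The called miR-989-3p did not follow the sums. In old hemolymph it was at 108 CPM in library 4, against 454 CPM in library 2 and 284 CPM in library 3. Among young body libraries it was highest in library 2, at 5322 CPM. Of the 8 microRNAs on the ovary and early embryo list 4 were tested, all 4 were positive, 1 was called and the median was 2.23, where 18 of all 124 were called and 68 were positive with a median of 0.09. miR-318-3p had 1.88 ± 1.72 (edgeR adjusted p = 0.504) and miR-994-5p 2.58 ± 1.58 (adjusted p = 0.274). With that list and the miR-310 family removed, 11 microRNAs were called higher and 17 lower, among them the 10 lower ones called with all microRNAs and the 7 higher ones that remained, since miR-989-3p itself was removed. Of the 16 testis microRNAs none had enough counts to be tested, and they summed to at most 0.0198% of any library.

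miR-4919-3p, from an intron of Cyp4aa1 on 2R (15945887 to 15945946, forward strand), fell below the level set for naming and was singled out after its values were seen. It had 0 counts in all 4 young hemolymph libraries and 47 counts over old hemolymph, where it was at 24.8 to 162 CPM. Against a floor of 3 counts over young hemolymph, its pooled level in old hemolymph was 13.6-fold higher. Body held 22.5 to 88.8 CPM in old flies and 5.34, 0, 30.4 and 24.7 CPM in young flies, a pooled ratio of 2.49. With the floor and the pooled values taken without their spread, the difference came to 2.45 on the log2 scale, which is no lower bound. It reached the level of the filter (69.4 CPM) in 5 old hemolymph libraries, 1 old body library and no young library, and entered the test only through old hemolymph, so that its call (edgeR adjusted p = 0.0120) is no independent support for a difference. In all, 7 tested microRNAs had no count in young hemolymph.

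Among the lower calls, miR-996-3p had the signs of miR-275-3p reversed in both compartments, with smaller changes. mir-996 (3R, 29217184 to 29217280, forward strand) and mir-279 (29215585 to 29215684) lie in exons of lncRNA:CR31044, and their products share a seed and act in the formation of CO2-sensing neurons in the fly. miR-996-3p was at 2704 to 3354 CPM in old hemolymph (median 3205), against 6283, 3551, 4785 and 3293 CPM in young hemolymph, which overlapped the old range at its upper end. Old body held 1525 to 2008 CPM (median 1746), above the 1046, 866, 1118 and 1177 CPM of young body. The change was -0.72 ± 0.16 in hemolymph (log2, edgeR adjusted p = 0.000571) and 0.71 ± 0.17 in body (adjusted p = 0.00240), and the difference was -1.43 ± 0.23 (adjusted p = 1.2e-04). Its call was lost in 1 alternative, with R-coded old libraries only (-0.93, adjusted p = 0.104).

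miR-279-3p fell in hemolymph. It was at 5686 to 7586 CPM in old hemolymph (median 6876), below the 15034, 12834, 8338 and 7611 CPM of young hemolymph. In body it was at 3168 to 4502 CPM in old flies (median 3991) and at 3565, 3019, 4038 and 4227 CPM in young flies, so the body groups overlapped. The difference was -0.99 ± 0.24 (edgeR adjusted p = 0.00782), with -0.93 ± 0.17 in hemolymph (adjusted p = 6.6e-05) and 0.05 ± 0.17 in body (adjusted p = 0.820). With young body library 1 as the TMM standard it was -0.64 (adjusted p = 0.106), and with young libraries 3 and 4 only it was -0.25 (adjusted p = 0.397).

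The miR-2 and miR-13 family, which represses the cell death genes reaper, grim and sickle in the fly, had a negative difference in all 6 of its tested members. The list holds 8 names, the median of the 6 was -1.30, and 2 were called lower, where 10 of all 124 were. No member was positive with TMM, RLE or upper-quartile factors, with library size alone or with the other TMM standard. miR-2b-3p was at 4173 to 6514 CPM in old hemolymph (median 4661), against 11047, 8428, 6624 and 6109 CPM in young hemolymph, with an overlap through old hemolymph library 8. In body it was at 6072 to 7425 CPM in old flies (median 6855), above the 5289, 4124, 5394 and 5170 CPM of young flies. Its hemolymph change was -0.95 ± 0.16 (log2, edgeR adjusted p = 4.7e-05), its body change 0.42 ± 0.17 (adjusted p = 0.0600) and the difference -1.37 ± 0.24 (adjusted p = 2.3e-04). Hemolymph minus body was -0.59 in old flies and 0.78 in young flies on the log2 scale. The call was lost without the low-count filter (adjusted p = 0.0501) and with R-coded old libraries only (-0.94, adjusted p = 0.104).

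miR-2c-3p had -1.40 ± 0.44 (edgeR adjusted p = 0.0280), on levels of 33.1 to 90.7 CPM in old hemolymph and 218, 152, 89.3 and 202 CPM in young hemolymph. In old body it was at 77.5 to 165 CPM, and the young body libraries held 208, 133, 121 and 103 CPM. The members with no call were miR-2a-3p (-1.24 ± 0.48, adjusted p = 0.0823), miR-308-3p (-1.58 ± 0.62, adjusted p = 0.0823), miR-11-3p (-0.46 ± 0.21, adjusted p = 0.129) and miR-13b-3p (-0.46 ± 0.28, adjusted p = 0.274). Reads of such near-identical members may have been shared between names, and miR-2b-3p and miR-13b-3p are each listed under several hairpins. The 6 values are therefore not independent of each other.

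miR-9c-5p and miR-9b-5p come from introns of grp on 2L (mir-9c at 16697924 to 16698015 and mir-9b at 16698744 to 16698834, forward strand). miR-9c-5p was at 2589 to 8241 CPM in old hemolymph (median 4288), against 20351, 11164, 5981 and 8507 CPM in young hemolymph. Old body held 6572 to 9004 CPM (median 7518), between young body libraries 1 and 2 at 5001 and 5489 CPM and young body libraries 3 and 4 at 12089 and 12316 CPM. The difference was -1.46 ± 0.39 (log2, edgeR adjusted p = 0.0120), from -1.54 ± 0.26 in hemolymph and -0.08 ± 0.27 in body. It shrank to -0.11 (adjusted p = 0.845) with young libraries 3 and 4 only, and was -2.28 with young libraries 1 and 2 only. Leaving out single libraries gave -1.54 to -0.87, and the value nearest 0, without young hemolymph library 1, missed the threshold (adjusted p = 0.119).

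miR-9b-5p had -1.12 ± 0.34 (edgeR adjusted p = 0.0257), with levels of 563 to 1659 CPM in old hemolymph and 3251, 2123, 1214 and 1444 CPM in young hemolymph. Old body averaged 1836 ± 231 CPM (SD, n = 8), and the young body libraries held 1783, 1754, 2257 and 2482 CPM. With young libraries 3 and 4 only it was -0.22 (adjusted p = 0.680), and without young hemolymph library 1 it was -0.71 (adjusted p = 0.119). Also in this hairpin cluster, miR-306-5p was not called (0.37 ± 0.31, adjusted p = 0.458). miR-9a-5p, encoded elsewhere and known for limiting sensory organ precursors, had -1.47 ± 0.53 and missed the threshold (adjusted p = 0.0598).

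**Figure D5:**
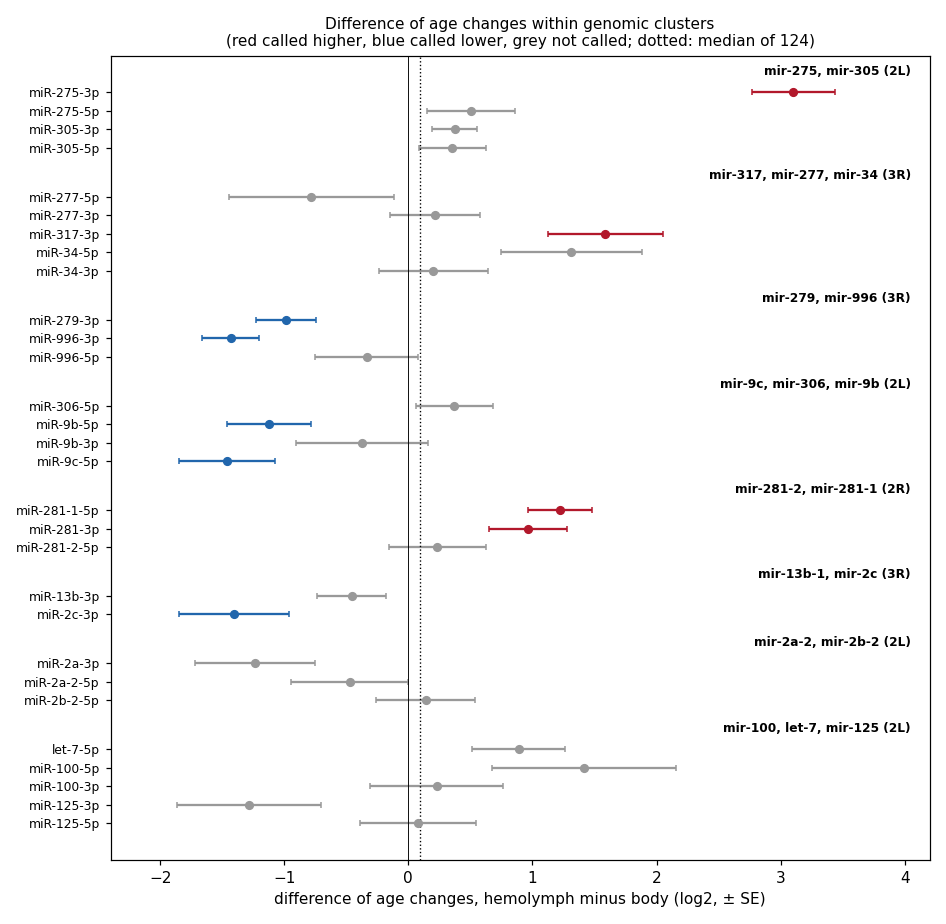
Differences of age changes (log2, with SE bars) are grouped for 8 genomic clusters of hairpins within 10 kb of each other on 1 strand, in red where called higher, blue where called lower and grey where not called. In the mir-275 and mir-305 cluster 1 of 4 products stands far above the rest at 3.10, and in the mir-279 and mir-996 cluster all 3 are below 0.

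miR-14-3p, a suppressor of cell death and a regulator of fat metabolism, lies on 2R (9553762 to 9553824, forward strand) in an exon of lncRNA:CR43651. Old hemolymph held 45855 to 85057 CPM (median 55317), against 100031, 74717, 58847 and 69975 CPM in young hemolymph. In body the level was 32289 to 53095 CPM in old flies (median 48395), against 40155, 26024, 23804 and 27896 CPM in young flies. Old and young libraries overlapped in both compartments. The difference was -1.07 ± 0.33 (log2, edgeR adjusted p = 0.0258), with -0.58 ± 0.22 in hemolymph (adjusted p = 0.0448) and 0.49 ± 0.23 in body (adjusted p = 0.106). With young body library 1 as the TMM standard it was -0.79 (adjusted p = 0.0740).

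miR-284-5p, reported in the fly to act on glutamate receptor subunits, rose in body. Its hairpin overlaps an exon of Octbeta2R on 3R (12551515 to 12551614, reverse strand). Old body held 1402 to 2384 CPM (median 1874), above the 763, 400, 936 and 1017 CPM of young body. Old hemolymph held 4797 to 6388 CPM (median 5765), and young hemolymph 3510, 2663, 5410 and 4001 CPM. The change was 0.33 ± 0.19 in hemolymph (log2, edgeR adjusted p = 0.193) and 1.27 ± 0.20 in body (adjusted p = 7.8e-05), a difference of -0.94 ± 0.27 (adjusted p = 0.0208). This was the least stable of the 18 calls, kept in 4 of 16 alternatives and in 10 of 24 fits without 1 library, where it ranged from -1.07 to -0.47. In body the 5p share of mir-284 was 86.7% ± 2.10 in old flies and 65.9% ± 8.24 in young flies, with no overlap. In hemolymph it was 73.9% ± 4.10 in old flies and 71.3% ± 19.4 in young flies, whose libraries enclosed the old ones.

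miR-316-5p (3L, 21668714 to 21668802, reverse strand, in an exon of lncRNA:CR45920) was at 114 to 289 CPM in old hemolymph (median 170), against 330, 348, 107 and 101 CPM in young hemolymph. Old body held 861 to 1169 CPM (median 1063), above the 678, 450, 430 and 630 CPM of young body. The difference was -1.48 ± 0.43 (log2, edgeR adjusted p = 0.0208), and -0.24 (adjusted p = 0.763) with young libraries 3 and 4 only.

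Leaving out single libraries ended lower calls mainly in fits where young body library 1 became the TMM standard. That was also the standard without young hemolymph library 4, where 9 of the 10 lower calls held. In the fits where old hemolymph library 3 became the standard, 7 to 10 of them held. The calls of miR-10-3p, miR-14-3p and miR-279-3p held in the same 14 of 24 fits. They were lost in the others, which left out old hemolymph library 4, any old body library but number 5, or either of young body libraries 3 and 4. Where they were lost the differences were -1.25 to -1.06, -0.82 to -0.72 and -0.71 to -0.62. The calls of miR-2c-3p and miR-316-5p held in 17 and 14 of 24 fits, and were lost at -1.18 to -1.01 and at -1.29 to -1.09. Those of miR-9b-5p, miR-9c-5p and miR-284-5p held in 13, 15 and 10 of 24 fits, and were lost at -0.96 to -0.71, -1.23 to -0.87 and -0.82 to -0.47.

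Several abundant or often studied microRNAs gave no call in the fit reported. miR-8-3p, which acts in the fat body on insulin signalling and body size, was at 254193 to 400818 CPM in old hemolymph and 143507, 173799, 268613 and 290544 CPM in young hemolymph. Old body held 127833 to 140063 CPM of it and young body 67624, 67920, 96970 and 104390 CPM, so that it lay higher in old than in young body in every library, and its difference was -0.32 ± 0.27 (edgeR adjusted p = 0.458). bantam-3p, which promotes growth and blocks cell death, was at 38172 to 45274 CPM in old hemolymph, below the 106874, 86055, 80736 and 72892 CPM of young hemolymph. In body it was at 39656 to 48266 CPM in old flies and at 72907, 67010, 42294 and 54290 CPM in young flies, with a difference of -0.81 ± 0.29 just outside the threshold (edgeR adjusted p = 0.0582). bantam-3p was called lower in 8 of 16 alternatives and in 8 of 24 fits without 1 library. miR-276a-3p, which acts in olfactory memory, was at 46446 to 75058 CPM in old hemolymph, against 183450, 178926, 139832 and 168157 CPM in young hemolymph. It was at 29051 to 35934 CPM in old body, against 77774, 58352, 41069 and 48079 CPM in young body. It lay lower in old libraries in both compartments, with a difference of -0.86 ± 0.32 (adjusted p = 0.0736).

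Others among the most abundant were miR-184-3p (-0.17 ± 0.38, edgeR adjusted p = 0.832), miR-33-5p, which sits in the SREBP gene (-0.17 ± 0.30, adjusted p = 0.792), and miR-956-3p (-0.23 ± 0.51, adjusted p = 0.832). let-7-5p, a timer of metamorphosis, had 0.89 ± 0.38 (edgeR adjusted p = 0.110). It was called higher in 8 of 16 alternatives and in 11 of 24 fits without 1 library, so that its lack of a call is not firm. Of the let-7 complex all 3 tested members were positive, with a median of 0.89 and no call. With upper-quartile factors 2 of the 3 were positive. The aging and lifespan list holds the 3 members of the let-7 complex with miR-34-5p, miR-277-3p and miR-14-3p. All its members also stand on other lists, so that it is not independent of them. It had 6 tested members, of which 5 were positive and 1 was called lower, with a median of 0.55. Among all 124, 68 were positive, 10 were called lower and the median was 0.09.

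The remaining lists stood as follows, beside 8 higher calls, 10 lower calls and a median of 0.09 among all 124. Among 12 members of the list for gut, fat body and metabolism 3 were called higher (miR-275-3p, miR-281-1-5p and miR-281-3p) and 1 lower (miR-14-3p), with a median of 0.12. On the immune and hemocyte list 2 of 11 were higher (miR-275-3p and miR-317-3p) and none lower, with a median of -0.06. Of the 4 muscle names 3 were tested and none was called, with miR-1-3p at -0.46 ± 0.57 (edgeR adjusted p = 0.633) and miR-133-3p at 0.18 ± 0.63 (adjusted p = 0.885). Of the miR-310 and miR-92 family 6 were tested with no call, 4 were positive and the median was 0.34. Among the 7 mirtrons, which are spliced from short introns, 3 were tested with no call and a median of -0.93. In hemolymph the CPM of old and young libraries did not overlap for 30 of the 124 (24.2%), and in body for 37 (29.8%), while among the 18 called the numbers were 9 and 8.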

How the data were processed

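Small RNAs were sequenced as 50-base single reads from TruSeq small RNA libraries of hemolymph and body tissue, per the labels' protocols. The submitters' processing notes name the dm6 genome, Bowtie 1.0 and edgeR (version not stated). The sources used here do not give the annotation release, the trimming or how multiple matches were treated. The counts deposited by the authors are whole numbers for each mature microRNA and hairpin, without normalization. The RPM values deposited by the authors are these counts scaled to the column total, and only the counts were tested. For a mature name on more than 1 hairpin the row with most counts was used, leaving out 10 of 476 rows. Every library gave miR-276a-5p the same count as miR-276b-5p, so near-identical names may share reads.

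One model was fitted in R 4.3.3 with edgeR 4.0.16 over the 24 libraries, with 1 coefficient for each group, TMM factors, filterByExpr at a minimum count of 10, the quasi-likelihood F test of the contrast (old minus young hemolymph) minus (old minus young body) and Benjamini-Hochberg adjustment over all tested. The age changes within compartments come from the same fit. A SE is the absolute log2 value estimated without a prior count, divided by the square root of F, whereas the log2 values printed include a prior count. The script was tested on simulated counts. Members and lists were chosen with earlier results of these data known. Named were the 12 largest called differences on each side whose mean reached 100 CPM, the 8 microRNAs with the highest CPM in hemolymph and in body, list members, and arms or cluster neighbours of these. Hairpin positions and host genes come from the Ensembl annotation (dm6 coordinates), which matched 89 of 91 hairpins. Alternatives used other scalings, filters, summed rows, DESeq2 1.42.0, limma 3.58.1, robust dispersion, a replicate block, subsets of libraries and leaving out each library. No 2 libraries were identical. As reads carry no molecular identifiers, floors cover counting error only, while SE and SD values also hold the spread between libraries.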

Additional observations from a re-analysis of the deposited data

Results flagged for a closer look

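The difference between the compartments' age changes, tested itself, singled out 8 microRNAs called higher and 10 called lower (edgeR quasi-likelihood test). Only miR-275-3p at 3.104 and miR-996-3p at -1.433 on the log2 scale had age changes of opposite sign in hemolymph and in body that passed the test in each.

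Dixon's test of the most distant library of a group singled out 5 of 107 groups examined, where chance alone gives about 1 in 20. The total count of old body library 3 was 230300, with the next highest at 177700. miR-281-1-5p was at 933.9 CPM in old hemolymph library 6, with the next lowest at 1522 CPM. miR-2b-3p was at 6514 CPM in old hemolymph library 8, with the next highest at 5230 CPM. In old body library 4, miR-316-5p was at 860.7 CPM with the next lowest at 1030 CPM, and miR-4919-3p at 88.81 CPM with the next highest at 47.77 CPM.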

How the results depend on the processing

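Beside 8 higher and 10 lower calls, the counts of higher and lower calls were 15 and 13 with RLE factors, 8 and 19 with upper-quartile factors, 13 and 11 with library size alone, 8 and 1 with no low-count filter, 20 and 2 at a mean of at least 100 CPM, 20 and 5 with rows of a name summed, 19 and 13 with DESeq2, 7 and 15 with limma, and 8 and 10 with robust dispersion. They were 10 and 2 with O-coded old libraries only, 3 and 2 with R-coded ones only, 15 and 14 with young libraries 3 and 4 only, 13 and 13 with young libraries 1 and 2 only, 11 and 17 without the ovary and miR-310 family lists, and 18 and 6 with young body library 1 as the TMM standard, an alternative chosen after seeing the data. Leaving out each library gave 5 to 18 higher and 2 to 17 lower calls, with the fewest higher calls without young body library 2 and the most lower calls without young body library 1. Apart from the TMM standard, which was changed on its own, the cause of these shifts in the counts was not tested. Of the values of 68 named microRNAs, 2322 stayed on their side of the threshold with the same sign or a shift below the SE. Another 133 passed it only under an alternative, 165 only in the fit reported, and 80 uncalled values changed sign with a larger shift. The 1 called reversal was miR-263a-5p at 1.659 with young libraries 3 and 4 only (adjusted p = 2.1e-05), against -1.06 with all libraries and -1.93 with young libraries 1 and 2 only (adjusted p = 0.00162).

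With the replicate number as a block, 12 were called higher and 14 lower, among them all 18 called without it. Same-numbered libraries deviated together with r of -0.305 to 0.116 in old flies (1 of 8 over 0.1) and 0.0984 to 0.615 in young flies (3 of 4 over 0.1, 2 of 4 best with their own number), and since not every pair was over 0.1 in either age the numbers were not used as pairs in the fit reported, although the young numbers go together in part. Named microRNAs called with the block but not in the fit reported were let-7-5p, miR-100-5p and miR-34-5p (higher) and bantam-3p, miR-276a-3p, miR-2a-3p and miR-9a-5p (lower). Hemolymph depth limits the rare microRNAs, since 3 counts over young hemolymph equal 5.25 CPM.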
